A study of Mus musculus with 8 samples.

Results

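The 7 genes described here belong to the interleukin-1 family of mouse: the ligands Il1a, Il1b and Il18, the receptor antagonist Il1rn, and the receptors Il1r2, Il18r1 and Il1rl1. They were taken by symbol from the 32285 genes listed in each expression matrix, and all 7 were found. Unique molecular identifiers (UMIs) of each gene were counted in barcodes that held 500 or more UMIs and 300 or more genes, with mitochondrial UMIs at 10% or below. The study sorted CD45+ leukocytes by flow cytometry from the submandibular gland and from its draining lymph nodes, in 4 SS mice and 4 control mice about 12 weeks of age. The labels give no strain, allele or agent behind the SS genotype and do not spell the letters out. They list 1 expression sample and 1 T cell receptor sample for each combination of genotype and tissue, and they do not say whether mice were pooled in a sample. No label or header tied the expression libraries C1, C2, C3 and C4 to these groups, and no library was assigned from its content. Values therefore stand side by side for 4 libraries without replicates, and nothing was tested between genotypes or tissues. The T cell receptor libraries were not analysed here.

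Interleukin-1 alpha and interleukin-1 beta signal through the receptor encoded by Il1r1 together with the accessory chain encoded by Il1rap, and they drive fever, neutrophil recruitment and T cell activation. The product of Il1rn occupies that receptor without signalling, and the product of Il1r2 is a decoy that binds ligand but lacks a signalling domain. Interleukin-18 acts on cells that carry Il18r1 and Il18rap, mainly T cells and NK cells, and is neutralised by the binding protein Il18bp. Il1rl1 encodes ST2, the receptor for interleukin-33, known from mast cells, type 2 innate lymphoid cells and some regulatory T cells. Interleukin-1 beta and interleukin-18 are made as precursors that caspase-1 cleaves within the inflammasome, so a transcript level is not a level of secreted cytokine.

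Il1a and Il1b lie on mouse chromosome 2 with 54382 bases between them. Their promoters and those of Il1rn and Il18 are shown because the UMIs of these genes lay mainly in macrophage-like and monocyte-like barcodes of C1 and C2. Each sequence is the 250 bases before an annotated start from RefSeq, build GRCm38.p6, printed 5′ to 3′ on the strand of the gene, with motif matches in capitals. All 7 members matched RefSeq, and for Il1rn, which has several annotated starts, window 2 is shown.
Il1a, chr2:129309973-129310222, minus strand: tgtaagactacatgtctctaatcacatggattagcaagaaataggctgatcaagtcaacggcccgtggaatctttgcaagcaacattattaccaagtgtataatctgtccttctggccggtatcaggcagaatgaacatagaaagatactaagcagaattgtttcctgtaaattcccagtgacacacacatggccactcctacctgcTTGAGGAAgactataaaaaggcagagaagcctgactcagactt
Il1b, chr2:129371140-129371389, minus strand: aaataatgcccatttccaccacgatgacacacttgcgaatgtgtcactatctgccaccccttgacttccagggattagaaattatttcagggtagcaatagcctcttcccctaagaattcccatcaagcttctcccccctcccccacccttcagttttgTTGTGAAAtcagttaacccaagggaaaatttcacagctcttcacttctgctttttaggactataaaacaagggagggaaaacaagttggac
Il1rn, chr2:24345041-24345290, plus strand: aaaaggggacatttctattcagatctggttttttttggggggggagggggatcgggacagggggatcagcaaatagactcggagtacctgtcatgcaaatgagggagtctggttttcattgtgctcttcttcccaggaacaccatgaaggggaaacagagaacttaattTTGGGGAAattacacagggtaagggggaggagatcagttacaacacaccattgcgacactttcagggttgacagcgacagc
Il18, chr9:50554450-50554699, plus strand: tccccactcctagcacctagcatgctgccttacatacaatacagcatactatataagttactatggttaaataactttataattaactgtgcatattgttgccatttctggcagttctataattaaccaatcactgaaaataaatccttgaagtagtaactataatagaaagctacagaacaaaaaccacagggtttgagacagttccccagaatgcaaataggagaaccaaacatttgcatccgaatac
Both strands were searched for GAGGAA (PU.1), for TTNNGNAA (C/EBP) and for the NF-kB motif reduced to its G and C ends. The Il1a window held a PU.1 match from 41 to 36 bases before the start, overlapping a C/EBP match from 43 to 36. A C/EBP match stood from 91 to 84 bases before the start of Il1b, and from 81 to 74 before that of Il1rn in window 2. The other Il1rn windows each held an NF-kB match, from 54 to 45 bases before the start in window 1 and from 51 to 42 in window 3, and window 3 held 3 C/EBP matches as well. Windows 2 and 3 overlap, and the window 3 match from 161 to 154 is the same stretch as the window 2 match. Its other matches, from 65 to 58 and from 64 to 57, overlap each other. The Il18 window held none of these letters. The receptor members were searched too. Window 3 of Il18r1 held an NF-kB and a PU.1 match, and windows 1 and 2 of Il1rl1 each held a C/EBP match. The Il1r2 window held none. Of 32536 promoter windows of this length, 23.4% held the PU.1 letters, 36.8% the C/EBP letters and 46.0% the NF-kB letters, so such matches are common. The receptor genes Il1r2, Il1r1, Il1rl2, Il1rl1, Il18r1 and Il18rap follow each other on chromosome 1, from base 40084692 to base 40551707 of the same build. Only 133 bases separate the annotated Il1rl1 and Il18r1.

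The kept barcodes numbered 5616, 5067, 8532 and 5957 for C1 to C4, and the matrices held 37902916 to 77819179 UMIs. Classes were named by marker genes and are written macrophage-like, T-like and so on. The macrophage-like class had 2510 barcodes for C1, 376 for C2, 1 for C3 and 0 for C4. Monocyte-like barcodes numbered 117, 129, 107 and 30, T-like 532, 3323, 2902 and 2682, and NK-like 1397, 372, 21 and 35. B-like barcodes, used as a background class, numbered 61, 10, 733 and 2040. Cluster 0, with 4364 barcodes of C3 and 234 of C4, and cluster 8, with 224 and 827, scored as T cells but were led by a marker of another class (Ly6c2, Ccr9) and stayed unnamed. Some barcodes were not leukocytes by their markers, despite the CD45 sort: 57 of C1 and 16 of C2 were endothelium-like, and cluster 18, which scored as epithelium, held 117 and 121. Levels are given in CPM, which is a gene's UMIs per 1000000 UMIs of the barcodes in question, with exact Poisson 95% intervals in brackets. Shares of barcodes carry exact Clopper-Pearson 95% intervals, and both kinds cover counting error only. Any pair of libraries shared 31 to 85 kept barcode sequences, at most 1.43% of the smaller library, and profiles under a shared sequence were correlated like others (median r 0.50 to 0.63 against 0.50 to 0.64).

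Il1b was carried by macrophage-like and monocyte-like barcodes. In the macrophage-like class C1 had 3270 (3245 to 3296) CPM and C2 1730 (1692 to 1770) CPM. In the monocyte-like class the levels in CPM were C1 3164 (3057 to 3274), C2 1951 (1874 to 2030), C3 227 (202 to 254) and C4 454 (385 to 531). C1 and C2 thus stood well above C3 and C4, and none of the 4 intervals overlapped. Of all Il1b UMIs in kept barcodes, the macrophage-like class held 92.2% for C1 and 73.9% for C2, where the monocyte-like class held a further 23.6%. With almost no macrophage-like barcodes, C3 and C4 had 312 and 189 Il1b UMIs in all, 96.8% and 82.5% of them monocyte-like. T-like levels were 16.8, 4.05, 0.225 and 1.57 CPM for C1 to C4. Free RNA, read in barcodes with at least 50 and fewer than 200 UMIs, had Il1b at 214 CPM for C1 and 43.3 for C2. Salivary gland genes put free RNA at 2.03% of T-like UMIs for C1 and 5.76% for C2, which would bring 4.33 of the 16.8 CPM and 2.49 of the 4.05 CPM. B-like barcodes of C1, which should lack the gene, had 15.3 CPM on 5 UMIs, close to the T-like value.

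An Il1b UMI was found in 80.0% (78.4 to 81.5%) of macrophage-like barcodes of C1 and 69.4% (64.5 to 74.0%) of those of C2, at median depths of 6746.5 and 10242.5 UMIs. For B-like barcodes of C1 the share was 6.56%, at a median of 4466 UMIs. Thinned to 4136 UMIs per barcode, the macrophage-like shares were 79.2% and 64.7%. The transcript was unevenly spread: the 10% of barcodes with most UMIs held 37.0% of Il1b UMIs for C1 and 41.7% for C2. Single barcodes reached 248 and 168 UMIs, against medians of 16 and 11. The 57 endothelium-like barcodes of C1 also had Il1b, at 1857 CPM and in 24.6% of them. C1qa, a complement gene of macrophages, stood there at 2151 CPM and in 33.3% of barcodes, and its part in the Il1b level was not tested.

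Il1a lay almost entirely in macrophage-like barcodes, which held 96.2% of its UMIs for C1 and 95.9% for C2. Its level there was 965 (951 to 979) CPM for C1 and 283 (268 to 300) CPM for C2. Monocyte-like barcodes of C1 had 106 (87.5 to 128) CPM, and those of C2 had 16 UMIs, an interval of 7.43 to 21.1 CPM. C3 and C4 had no Il1a UMI in monocyte-like barcodes, with upper limits of 2.77 and 10.7 CPM, although these barcodes carried Il1b. Over all kept barcodes C3 held 2 Il1a UMIs and C4 held 0. The share of macrophage-like barcodes with an Il1a UMI was 81.1% (79.5 to 82.6%) for C1 and 42.0% (37.0 to 47.2%) for C2, or 76.5% and 33.1% after thinning. T-like barcodes had 3.63 CPM for C1 and 0.205 for C2, where free RNA at those shares would bring 1.55 and 0.301 CPM.

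Il1rn, the antagonist, stood in the other order. Its macrophage-like level was 13.5 (11.9 to 15.2) CPM for C1 and 54.0 (47.4 to 61.4) CPM for C2. Monocyte-like levels in CPM were C1 47.9 (35.6 to 63.2), C2 42.2 (31.5 to 55.4), C3 99.9 (83.6 to 118) and C4 61.1 (37.8 to 93.3). C3 stood above C1 and C2, while C4 overlapped all of them. An Il1rn UMI was found in 4.06% of macrophage-like barcodes of C1 and 19.7% of those of C2, or 2.55% and 9.64% after thinning, while B-like barcodes of C1 had none. NK-like barcodes of the 4 libraries held 0 Il1rn UMIs, and no T-like level passed 0.667 CPM.

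Il18, which encodes the precursor of interleukin-18, was detected at similar levels in macrophage-like barcodes, 18.1 (16.2 to 20.1) CPM for C1 and 19.3 (15.4 to 23.9) CPM for C2. Its monocyte-like levels in CPM were C1 27.8 (18.6 to 39.9), C2 25.2 (17.1 to 35.7), C3 42.8 (32.4 to 55.5) and C4 29.1 (13.9 to 53.5), with overlapping intervals. The highest T-like level was that of C3, 2.21 (1.63 to 2.92) CPM, and the lowest that of C4, 0.302 CPM. B-like barcodes held 21 of the 38 Il18 UMIs of C4, at 2.17 (1.34 to 3.31) CPM. Macrophage-like shares of 12.2% for C1 and 17.0% for C2 became 7.03% and 6.89% after thinning.

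**Figure D1:**
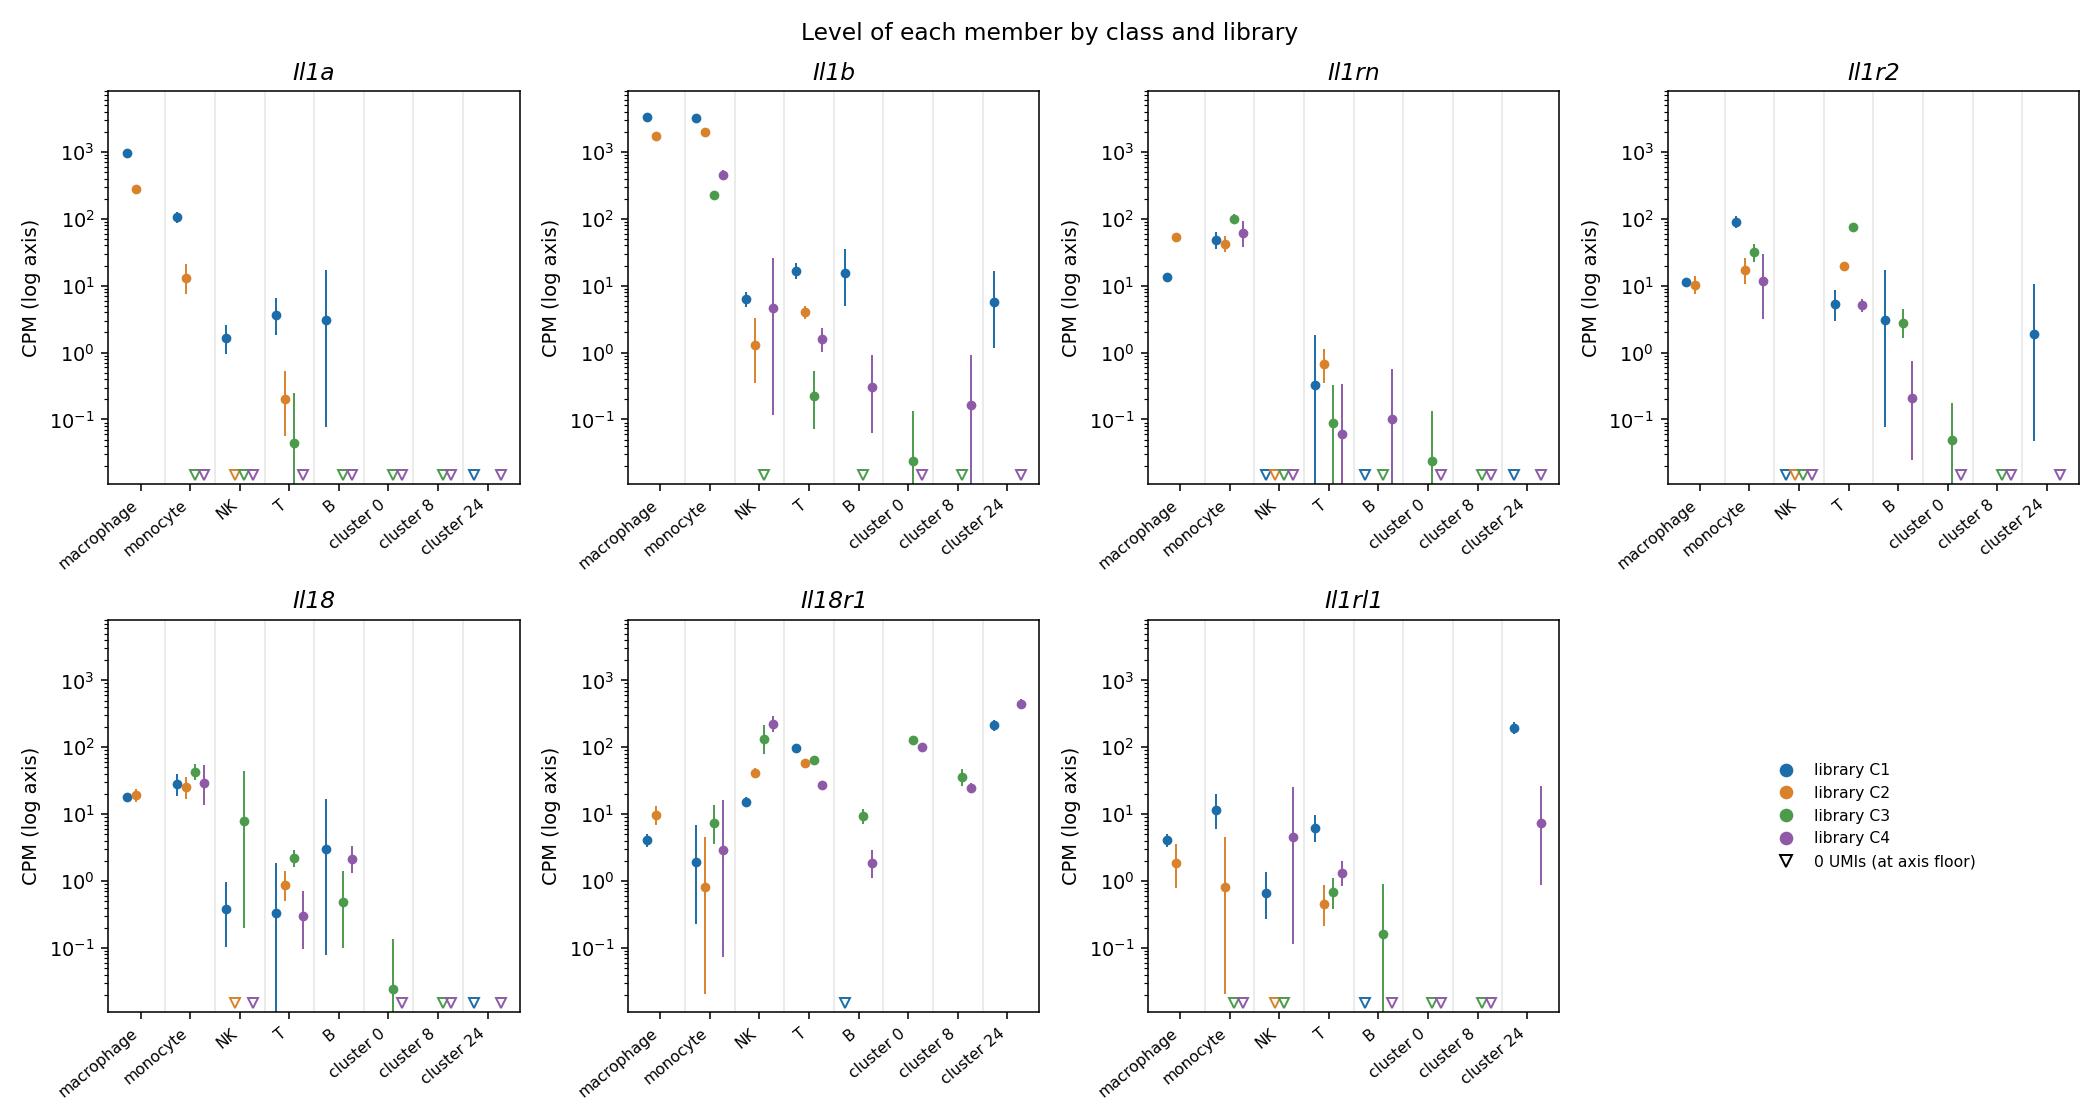
Level of each of the 7 members in CPM (log axis) by class for libraries C1 to C4, with exact Poisson 95% intervals; open triangles mark 0 UMIs, and points need at least 20 barcodes. Il1a and Il1b are highest in macrophage-like barcodes of C1, at 965 and 3270 CPM.

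**Figure D2:**
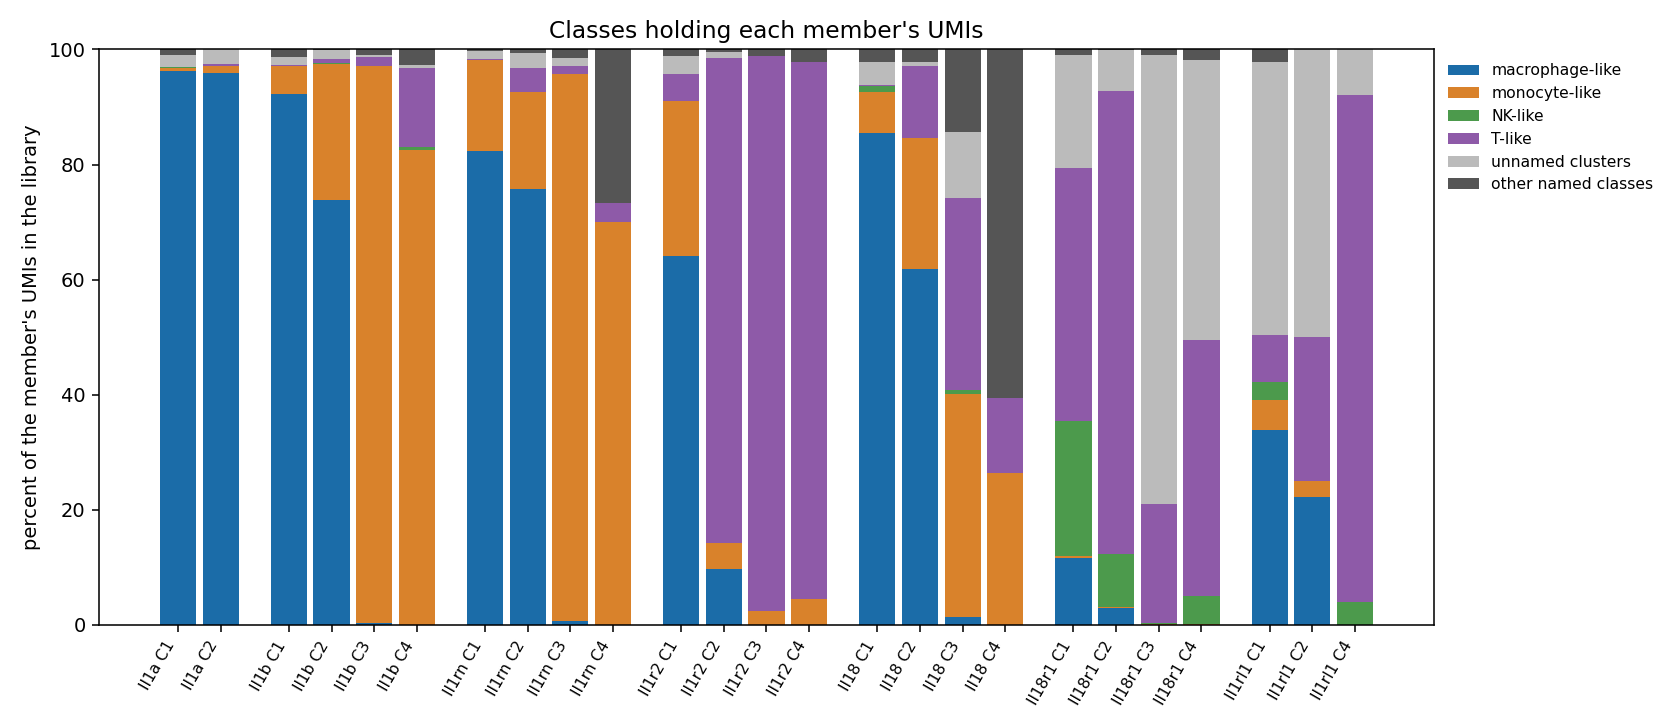
Share of each member's UMIs held by each class, in percent (stacked bars), for libraries with at least 20 UMIs of the member. Macrophage-like barcodes held 96.2% of Il1a UMIs of C1, and unnamed clusters held 78.0% of Il18r1 UMIs of C3.

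Set against all other kept barcodes of C1, macrophage-like barcodes had 15.8% of 10370 genes past 2-fold higher and 12.0% past 2-fold lower. All 7 members met the minimum of 50 UMIs, and 4 were higher: Il1a by 26.4-fold, Il1b by 12.3-fold, Il18 by 6.11-fold and Il1rn by 4.81-fold. Il18r1 was the 1 member past 2-fold lower. The minimum is counted in the macrophage-like class alone, so a gene that is rare there drops out however common it is elsewhere. For C2, where the background was 16.9% higher and 9.19% lower, it left Il1a at 145-fold, Il1rn at 19.6-fold, Il1b at 17.7-fold and Il18 at 10.1-fold higher. Il18r1 fell outside it with 42 UMIs, at 9.66 CPM against 49.9 CPM elsewhere, and so did Il1r2 with 45, at 10.3 against 15.4 CPM, and Il1rl1 with 8. A count of higher members is therefore set by the minimum for C2. These ratios are a description, since the classes were defined from the same barcodes.

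Between the macrophage-like barcodes of C1 and C2, Il1a was 3.41-fold and Il1b 1.89-fold higher for C1, and Il1rn was 4.01-fold higher for C2. Of 9163 genes with at least 50 UMIs in the higher library, 5.73% were past 2-fold higher for C1 and 3.70% past 2-fold lower. Of the 6 members that met the minimum, 2 were past 2-fold higher for C1, Il1a and Il1rl1, and 1 was past 2-fold lower, Il1rn. The Il1rl1 ratio of 2.20 rests on 78 and 8 UMIs, and the ratios of Il1r2 and Il18 were 1.11 and 0.935. Il18r1 missed the minimum with 42 UMIs in its higher library, C2, at 4.10 CPM for C1 and 9.66 for C2. Cd3e, a T cell marker, was 34.8 and 139 CPM in these barcodes, and the part of T cell RNA in the Il18r1 level was not tested. The median log2 ratio was 0.54 over the 6 members and 0.15 with Il18r1, against -0.01 for all genes that met the minimum. Clusters 21 and 27, with 269 barcodes of C1 and 7 of C2, scored as macrophages but had other leading genes, Gzmc in cluster 21 and Krt7 and Klk1b22, genes of salivary ducts, in cluster 27. Without them, an alternative added after the values were seen, C1 had Il1b at 3506, Il1a at 1041 and Il1rn at 15.5 CPM, and the Il1b ratio of C1 over C2 was 2.01, just past 2-fold. Different clusters made up the class in each library. Cluster 4, led by Mmp12, Cxcl1, Cxcl2 and Il1a itself, held 2044 barcodes of C1 and 31 of C2. Cluster 14, led by Ccl8, Mrc1 and Cxcl9, held 90 of C1 and 323 of C2. At a finer clustering (resolution 2) 49 barcodes of C2 stayed in the class, and the C2 levels were then 617 CPM for Il1a, 31.0 for Il1rn and 12.4 for Il18.

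Within each cluster, a view added after the values were seen, Il1a and Il1b were close between libraries. Il1a in cluster 4 was 1103 (1086 to 1121) CPM for C1 and 1180 (1044 to 1330) CPM for C2, and in cluster 14 it was 238 (204 to 275) and 238 (222 to 254) CPM. Il1b in cluster 4 was 3736 (3704 to 3767) and 4003 (3748 to 4270) CPM, and in cluster 14 1517 (1430 to 1608) and 1664 (1624 to 1706) CPM. The Il1a difference over the whole class was thus not present within either cluster, and Il1b was slightly higher for C2 in cluster 14. Il1rn in cluster 4 was 11.9 (10.2 to 13.8) CPM for C1 and 47.9 (23.9 to 85.7) CPM for C2, the latter on 11 UMIs. In cluster 14 the order turned, with 89.4 (69.3 to 114) CPM for C1 and 56.9 (49.5 to 64.9) for C2. The 12 early-response genes, such as Fos, Jun and Egr1, which are known to rise during tissue dissociation, summed to 46905 and 27784 CPM in cluster 4 and to 38607 and 18388 CPM in cluster 14. Over the macrophage-like class the sum was 43561 and 18468 CPM, and in monocyte-like barcodes 22312, 15102, 4996 and 6224 CPM for C1 to C4. The labels' protocols describe a warm collagenase digestion for glands and trituration alone for nodes. Unlike the members, the early-response genes were not left out of the clustering. Their part in the ligand levels was not tested.

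**Figure D3:**
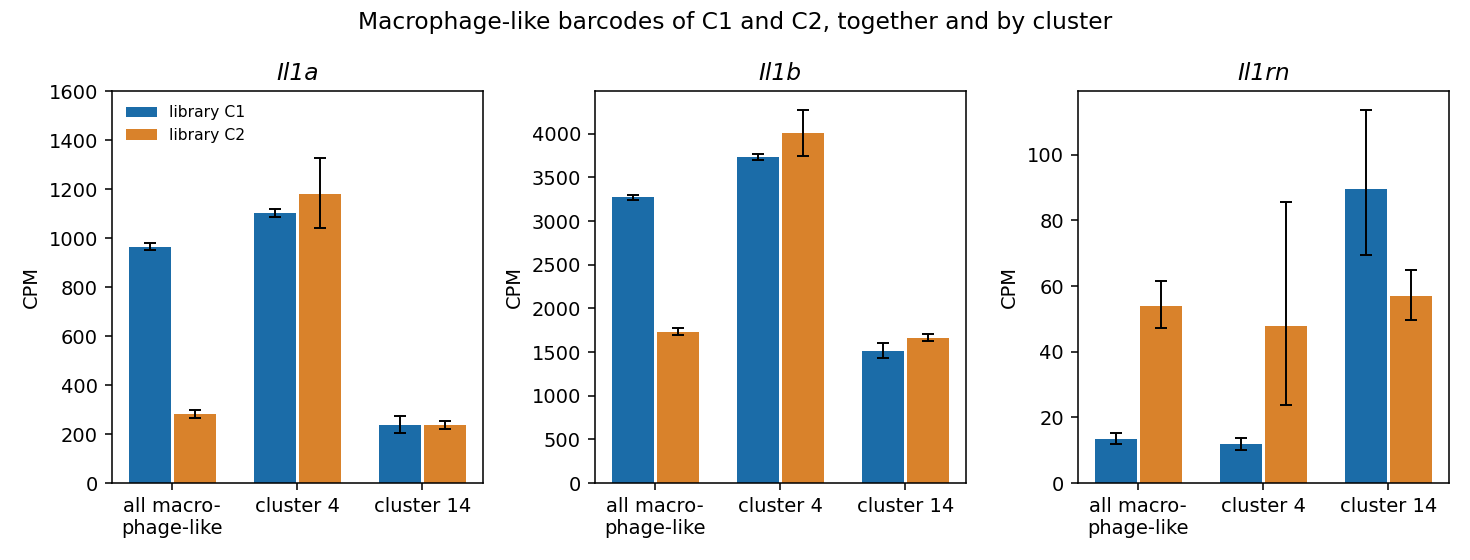
Bars give the CPM of Il1a, Il1b and Il1rn for C1 and C2 over the whole macrophage-like class and within clusters 4 and 14, with exact Poisson 95% intervals. Il1a is 965 and 283 CPM over the class but 238 CPM for both libraries within cluster 14.

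Gates on single genes divided the macrophage-like class in another way. Barcodes with Cxcl9, an interferon-induced chemokine, numbered 51 for C1 and 240 for C2, and had Il1b at 3531 (3371 to 3696) and 1340 (1299 to 1381) CPM. Their Il1rn was 121 (93.2 to 155) and 63.1 (54.6 to 72.5) CPM. Barcodes without Cxcl9 and without Mrc1 or Folr2, genes of resident-type macrophages, had Il1b at 3300 (3273 to 3327) CPM for C1 and 3095 (2989 to 3205) CPM for C2. Their Il1rn was 9.72 and 26.3 CPM, below the Cxcl9 barcodes of the same library, and their Il1a was 999 (985 to 1014) and 625 (578 to 676) CPM. Barcodes with Mrc1 or Folr2 and no Cxcl9 had Il1b at 2745 CPM for C1, with 18 such barcodes in C2. Monocyte-like barcodes were split, after the values were seen, by dendritic markers such as Flt3 and Cd209a. Il1b was 4558, 2655 and 313 CPM without such a marker and 1786, 1242 and 121 CPM with one for C1, C2 and C3, so it was lower with a marker in each.

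In macrophage-like barcodes of C1, 83.8% of 2035 barcodes with an Il1a UMI also had Il1b, against 63.6% of 475 without one, at median depths of 6948 and 5706 UMIs. For C2 the shares were 73.4% of 158 and 66.5% of 218, at 9168 and 11479 UMIs. In C2, Il1a was found in 27.0% of 74 barcodes with Il1rn and in 45.7% of 302 without it, although the former were deeper (medians 13912 and 9490.5 UMIs). For C1 these shares were 81.4% of 102 and 81.1% of 2408. The splits were made over the whole class and not within a cluster. For C2, clusters 4 and 14 had Il1a at 1180 and 238 CPM and Il1rn at 47.9 and 56.9 CPM.

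Il1r2, the decoy receptor, was found in T-like barcodes as well as in myeloid ones. Its T-like levels in CPM were C1 5.28 (3.02 to 8.57), C2 20.0 (18.1 to 22.1), C3 74.3 (70.7 to 77.9) and C4 5.08 (4.05 to 6.28). C3 stood highest and C2 next, while C1 and C4 overlapped. The C3 level depends on which clusters count as T cells: with clusters 0 and 8 added, an alternative chosen after the values were seen, it was 25.4 CPM. With each library clustered alone the C4 level was 2.57 CPM. Regulatory barcodes, gated by Foxp3, numbered 8, 84, 93 and 234, and their levels in CPM were C2 281 (241 to 325), C3 348 (306 to 394) and C4 42.5 (33.3 to 53.5). An Il1r2 UMI was present in 40.5% (29.9 to 51.7%) of them for C2, 46.2% (35.8 to 56.9%) for C3 and 10.3% (6.68 to 14.9%) for C4, at median depths of 5009, 4919 and 5575.5 UMIs. After thinning to 2615 UMIs the shares were 34.2%, 35.9% and 5.61%. C4 was thus the lowest of C2, C3 and C4 on both scales, with C1 left out at 8 barcodes. B-like barcodes had shares of 0.819% for C3 and 0.0980% for C4, at medians of 5305 and 3954.5 UMIs.

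Cluster 6 was the other T-like site of Il1r2. It was led by genes such as Sostdc1, Il2 and Tnfsf11, and Il1r2 was among its leading genes although it had not been used to cluster. Its barcodes without Foxp3, a split chosen after the values were seen, had levels in CPM of C2 268 (226 to 315), C3 173 (163 to 184) and C4 3.13 (0.379 to 11.3). CD4 barcodes with Ccr7 or Lef1 and no Ccl5 had levels of C2 146 (115 to 183), C3 156 (145 to 169) and C4 0.555 (0.180 to 1.29), and the 39 such barcodes of C1 held 0 UMIs. This gate is plotted as CD4 naive-type, but its barcodes need not be naive cells. C4 stood far below C2 and C3 in that gate, which held 81 barcodes of C2, 616 of C3 and 1458 of C4. Cluster 1, led by genes such as Ly6c1 and Igfbp4, had 2 barcodes of C2, 343 of C3 and 2175 of C4. The gate thus drew on different clusters by library, and its overlap with cluster 6 was not counted. CD8 barcodes had 1.03 CPM for C2 and 13.1 for C3, and 0 UMIs for C1 and for C4. With clusters 0 and 8 counted, the C3 level over 5412 CD8 barcodes was 2.33 (1.93 to 2.79) CPM. NK-like barcodes of the 4 libraries held no Il1r2 UMI, with an upper limit of 0.353 CPM for the 1397 of C1. Monocyte-like levels in CPM were C1 89.1 (71.9 to 109), C2 17.1 (10.6 to 26.1), C3 31.5 (22.7 to 42.6) and C4 11.6 (3.17 to 29.8), with C1 highest, and macrophage-like levels were 11.5 for C1 and 10.3 for C2.

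Il18r1, the ligand-binding chain of the interleukin-18 receptor, had T-like levels in CPM of C1 98.3 (87.5 to 110), C2 57.7 (54.4 to 61.2), C3 63.5 (60.2 to 66.9) and C4 27.2 (24.7 to 29.8). C1 stood highest and C4 lowest, with C2 and C3 between them. Over T-like barcodes, 31.3% of 9988 genes with at least 50 UMIs in their highest library were past 2-fold between the highest and the lowest library. The 3 members that met this minimum, Il18r1, Il1r2 and Il1b, were past 2-fold, and the Il18r1 ratio was 3.62. Il1b met it with 51 UMIs of C1, where its T-like level was close to the B-like one. Members below the minimum were past 2-fold as well, on few UMIs, so the minimum sets this count. Il18, for example, had a ratio of 7.31 on 49 and 5 UMIs. An Il18r1 UMI was found in 31.2%, 18.1%, 24.3% and 11.8% of T-like barcodes of C1 to C4, at median depths of 5376, 4925, 5407 and 5592 UMIs, and in 22.6%, 12.3%, 14.9% and 6.51% after thinning to 3089 UMIs. B-like barcodes had shares of 3.82% for C3 and 0.784% for C4. The unnamed cluster 0 had 127 (124 to 131) CPM for C3 and 102 (88.8 to 117) CPM for C4, with a UMI in 63.4% and 53.8% of its barcodes. With clusters 0 and 8 counted as T-like, the C3 level was 103 CPM, no longer below C1, and the C4 level was 33.0 CPM.

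Against all other kept barcodes of a library, 12.0, 11.2, 11.1 and 4.54% of genes were past 2-fold higher in T-like barcodes of C1 to C4, and 4.64, 7.45, 2.09 and 4.21% past 2-fold lower. Il18r1 was 9.34-fold and 2.56-fold higher for C1 and C2, but its ratio was 0.613 for C3 and 0.927 for C4, where the unnamed clusters held 78.0% and 48.7% of its UMIs. Il1r2 was 3.30-fold, 62.5-fold and 16.2-fold higher for C2, C3 and C4. The other barcodes of C3 and C4 included clusters 0 and 8, which scored as T cells. These clusters had 4364 and 224 of the 8532 kept barcodes of C3, and 234 and 827 of the 5957 of C4. The C3 and C4 ratios are thus partly between T cells and do not measure the same contrast as that of C2. Il1b was past 2-fold lower for C1 and C2. No other member had 50 UMIs in the T-like class, where the minimum is counted. Il1a was among those left out, with 11 T-like UMIs against 19317 elsewhere for C1 and 4 against 1281 for C2, and so were Il1rn, with 1 against 315 and 13 against 297, and Il18, with 1 against 406 and 17 against 119.

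The CD4 and CD8 gates placed Il18r1 differently by library. CD4 barcodes had levels in CPM of C1 143 (123 to 164), C2 85.9 (76.5 to 96.0), C3 42.5 (38.1 to 47.3) and C4 24.6 (21.5 to 28.0). CD8 barcodes had C1 52.5 (40.2 to 67.5), C2 47.0 (43.4 to 50.8), C3 75.0 (69.4 to 80.9) and C4 30.5 (21.1 to 42.6). CD4 stood above CD8 for C1 and C2 and below it for C3, and the intervals overlapped for C4. These gates cover T-like barcodes, which are 937 of 5412 CD8 barcodes for C3 and 128 of 1092 for C4 once clusters 0 and 8 are counted. Over all of those, Il18r1 in CD8 barcodes was 116 (113 to 119) CPM for C3 and 41.7 (37.5 to 46.3) CPM for C4, and CD4 then stood below CD8 for C4 too, at 24.9 (21.8 to 28.3) CPM. Cluster 9, led by Il17a and Il17re, genes of T cells that make interleukin-17, had levels of C1 161 (141 to 182), C2 193 (172 to 215) and C4 283 (200 to 388). The C4 level rests on 23 barcodes, against 288 for C1 and 356 for C2, and C3, with 17, is not given. Regulatory barcodes had 98.4, 113 and 35.5 CPM for C2, C3 and C4.

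In NK cells interleukin-18 is known to promote interferon-gamma. NK-like barcodes had Il18r1 levels in CPM of C1 15.3 (13 to 17.9), C2 41.2 (34.4 to 49.0), C3 135 (78.4 to 215) and C4 225 (167 to 298), of which the C3 and C4 values rest on 21 and 35 barcodes. C1 stood lowest, then C2, and C3 and C4 overlapped. Barcodes with Gzmc or Itga1, genes of tissue-resident NK cells and related lymphoid cells, made up 1182 of the 1397 for C1 and 293 of the 372 for C2. Their level was 9.19 (7.32 to 11.4) CPM for C1 and 30.4 (24.0 to 38.1) CPM for C2. Barcodes with neither gene had 54.6 (43.1 to 68.3) CPM for C1, 84.1 (63.0 to 110) for C2 and 229 (164 to 311) for C4, above the others of the same library for C1 and C2. Il18rap, the accessory chain, was 23.0, 48.9, 261 and 243 CPM in NK-like barcodes of C1 to C4.

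Il1rl1 was rare, with 230, 36, 16 and 25 UMIs over all kept barcodes of C1 to C4. Cluster 24 held 103 of those of C1, a level of 197 (161 to 239) CPM from 94 barcodes, and 2 of those of C4 from 46 barcodes. It scored as innate lymphoid, but Tcrg-V6, a gamma-delta T cell receptor gene, was among its leading genes together with Il17f, Il23r and Il1rl1 itself, so it stayed unnamed. This rule and the next split were chosen after the values were seen. The 47 barcodes of C1 without a Cd3 UMI had Il1rl1 at 330 (262 to 411) CPM and Il18r1 at 45.4 (22.7 to 81.2) CPM. The 47 with one had Il1rl1 at 81.9 (51.9 to 123) CPM and Il18r1 at 363 (296 to 441) CPM, so Il1rl1 was lower and Il18r1 higher with a Cd3 UMI. In C4, 42 barcodes with a Cd3 UMI held 0 Il1rl1 UMIs, an upper limit of 14.9 CPM, and Il18r1 at 425 (347 to 514) CPM. The 8 cluster 24 barcodes of C2 held 16 Il1rl1 UMIs. Regulatory barcodes held 4, 9 and 19 UMIs for C2, C3 and C4, with intervals of 1.70 to 16.0, 5.69 to 23.6 and 6.67 to 17.3 CPM that overlapped. With each library clustered alone the C4 level there was 2.53 CPM, against 11.1. CD8 barcodes held none in the 4 libraries, and macrophage-like levels were 4.05 CPM for C1 and 1.84 for C2. The early-response sum in cluster 24 was 29560 CPM for C1 and 4546 for C4, and its part in the Il1rl1 level was not tested.

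**Figure D4:**
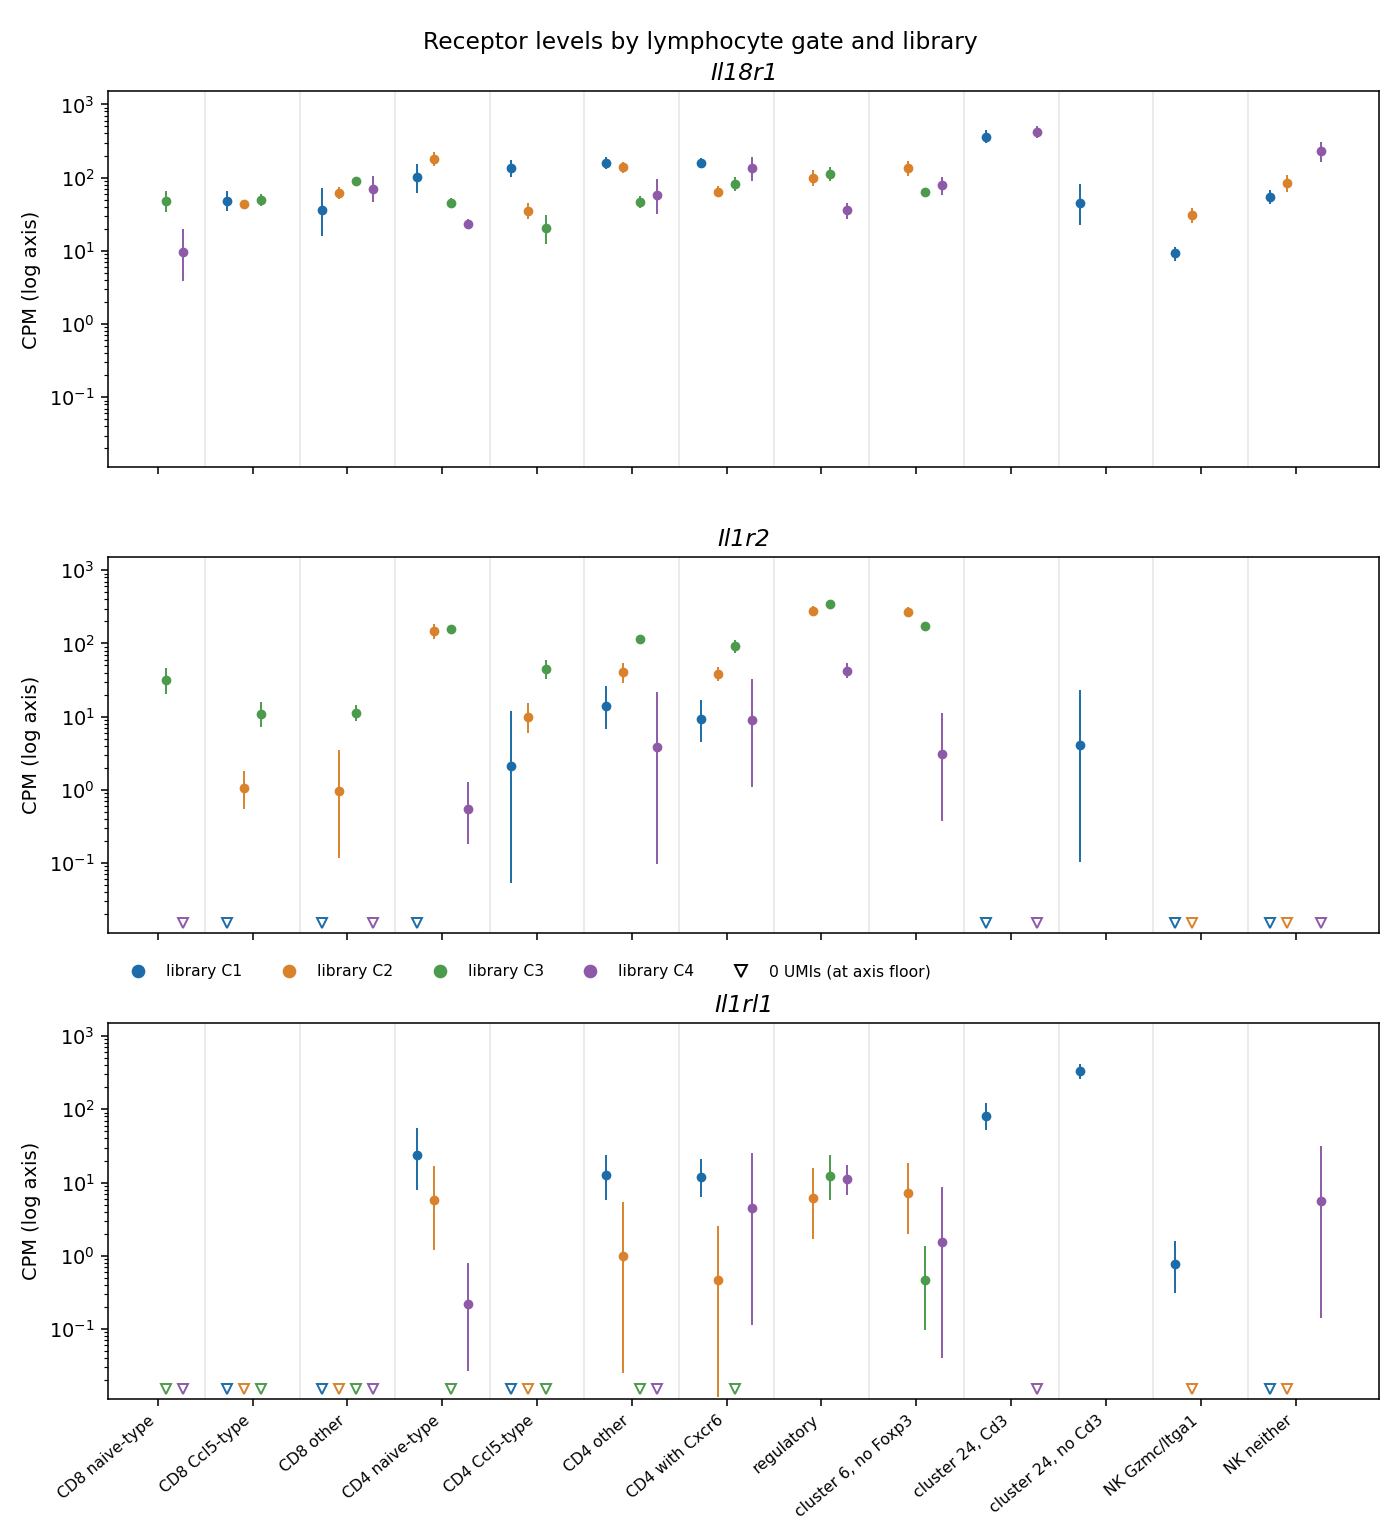
Il18r1, Il1r2 and Il1rl1 in CPM (log axis) by lymphocyte gate for libraries C1 to C4, with exact Poisson 95% intervals; open triangles mark 0 UMIs. Il1r2 in regulatory barcodes is 281, 348 and 42.5 CPM for C2, C3 and C4, and Il1rl1 is 330 CPM in cluster 24 barcodes of C1 without a Cd3 UMI.

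Other genes of the pathway were read from lists. Between macrophage-like barcodes of C1 and C2, 3 of the 12 signalling genes that met the UMI minimum were past 2-fold higher for C1 and 0 past 2-fold lower, with a median log2 ratio of 0.28, where 5.73% of all genes were higher and 3.70% lower. Nfkbia, an inhibitor of NF-kB that NF-kB induces, was 2151 and 777 CPM for C1 and C2, Nfkbiz 1583 and 677, Tnfaip3 780 and 315 and Nfkb1 137 and 114. Of 9 inflammasome genes that met the minimum, 1 was past 2-fold higher for C1 and 0 lower, with a median of 0.14, a count near what that background gives. It was Nlrp3, the sensor protein of one inflammasome, at 167 and 57.7 CPM. Casp1, the protease, was 73.6 and 121 CPM, the adaptor Pycard 94.3 and 165, the DNA sensor Aim2 85.1 and 69.9 and the pore-former Gsdmd 59.4 and 92.2. Il18bp was 4.62 CPM for C1 (89 UMIs) and 97.3 for C2 (423 UMIs), and within cluster 14 it was 20.0 and 105 CPM. Within cluster 4 it was 3.60 (2.69 to 4.72) CPM for C1 and 4.36 (0.110 to 24.3) CPM for C2, the latter on 1 UMI. Il1rl2, a receptor for interleukin-36, was 16.2 and 2.07 CPM. Of the 12 early-response genes, 7 were past 2-fold higher for C1 and 0 lower, with a median of 1.57.

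In lymphocytes, Casp1 was 83.1, 127, 107 and 11.6 CPM in T-like barcodes of C1 to C4 and 2.96 CPM in cluster 0 of C3. The signalling receptor gene Il1r1, outside the rule for named genes and chosen after its values were seen, was 1.65, 1.85, 5.14 and 0.544 CPM in T-like barcodes. In cluster 24 it was 53.5 CPM for C1 (28 UMIs) and 51.3 CPM for C4 (14 UMIs). Sigirr, an inhibitory receptor of the family, was 33.7, 28.8, 34.3 and 31.1 CPM in T-like barcodes and 2.75 and 4.14 for the macrophage-like class (C1, then C2). Il1rap was 7.26, 8.93, 6.94 and 6.34 CPM in T-like barcodes. Irak3, an inhibitor of this signalling in myeloid cells, was 27.8, 28.4, 26.3 and 8.72 CPM in monocyte-like barcodes. Il1f5, Il1f6 and Il1f10, which encode interleukin-36 family proteins and a relative, had 0 UMIs in the named classes. They tied at a median of 0 with Il33, Il1f8 and Il1f9, so the ranking did not set them apart. Il1f9, chosen after its values were seen, had 19 UMIs in monocyte-like barcodes of C1, 18.2 (11 to 28.4) CPM, and 7 in those of C3.

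The genes most like each member were ranked by Pearson correlation of log2(CPM + 1) over 15 pairs of class and library, among 11622 genes, with no test because the points share libraries and classes. For Il1a they were Dcstamp (r = 0.982), Nes, Stab1, Itga8 and Col14a1, and for Il1b they included Nlrp3 (r = 0.983), Wdfy3, Cd33 and Tbxas1. For Il1rn they were Pilra (r = 0.992), Dpep2, Csf2rb2, Tlr8 and Slamf8, and for Il18 Lrrc25 (r = 0.971), 2310040G24Rik, Nfam1, Sirpa and I830077J02Rik. For Il18r1 they were Ms4a4b (r = 0.958), Ubash3a, Snai3, Gm10369 and Cd28. Values were lower for Il1r2, with Nccrp1 (r = 0.884), Tbc1d4, Gltp, Tiam1 and Gm16894, and for Il1rl1, with Nfkbia (r = 0.846), Emp1, Gm28592, Pvr and Pdp2. The pairs came from named classes only, so unnamed clusters such as 0 and 24 were left out. Unnamed clusters held 47.4% of Il1rl1 UMIs of C1 and 78.0% of Il18r1 UMIs of C3. In the pairs used, Il1rl1 had 78 UMIs in macrophage-like barcodes of C1 and 22 or fewer in each other pair.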

How the data were processed

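The deposited matrices hold whole-number UMI counts per gene and barcode, with no normalization. The file headers name Cell Ranger 4, while the submitters' processing notes name Cell Ranger 6.1.2, STAR 2.7.10a and mm10. The labels' protocols name BD Rhapsody and the design text 10x. Deposited counts summed to 48439860, 44798843, 77819179 and 37902916 UMIs for C1 to C4, with median depths of 6224.5, 4939, 8076 and 5203 UMIs per kept barcode.

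Kept barcodes were scaled to 10000 UMIs, log-transformed and clustered together (2000 variable genes without members and pathway genes, 30 principal components, 15 neighbours, leidenalg 0.10.2, resolution 1, scipy 1.17.1, Python 3.11.15). The early-response genes were not among the genes left out, and Hspa1a was a leading gene of cluster 21. A class needed a marker score of 0.5 or more and 3 or more markers each seen in 10% of barcodes; clusters with more leading genes from another class's marker list than from their own, shallow clusters without a leading marker, and a non-T cluster led by a T receptor gene stayed unnamed. Scrublet (scanpy 1.11.5) called 166, 0, 2 and 116 doublets, too few for C2 and C3 to count as working, and none were removed. Thinning used percentile 10 of each class's depth. In ratios a count of 0 was set to 3. The ratio step was tested on simulated data. No column was left unused for lack of a sample (0). Genes named were the members, per pathway list the 4 of highest median CPM and the 1 of largest ratio, and per member the 5 most alike, of which 1 for Il1b is not reported here. Members and lists were chosen with earlier results of these data known.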

Additional observations from a re-analysis of the deposited data

How the results depend on the processing

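Levels were recomputed under each alternative and compared with the counting interval of the value reported. Of 282 alternative values, 221 lay inside that interval or, for counts of genes, within 1.5 times. The leading results were macrophage-like Il1b, T-like Il18r1, Il1r2 in regulatory barcodes of C2 and C3, and the counts of genes. For these it was 57 of 79, and for the others 164 of 203. Among the others, 3 ratios of C1 over C2 that had been past 2-fold fell on the other side of 1. Il1b in macrophage-like barcodes of C1 was 3335 CPM at most 5% mitochondrial UMIs, 3491 without the top 5% of doublet scores, 3342 at resolution 2, 3337 with each library clustered alone 3212 with a class per barcode and 3506 without clusters 21 and 27; in C2 it was 1822 without the top doublet scores, 2339 at resolution 2, where 49 barcodes remained, and 1794 with each library alone. Il1a in C2 ran from 269 to 617 CPM, the highest again at resolution 2. Il18r1 in T-like barcodes of C1 was 125 CPM with each library alone and 117 with a class per barcode. In C3 it was 59.7 without the top doublet scores, 104 at resolution 2, 104 with each library alone, 101 with a class per barcode and 103 with clusters 0 and 8 counted as T-like, the last 4 of which add barcodes to the class; for C4 those 4 gave 31.2, 34.1, 35.1 and 33.0. Il1r2 in regulatory barcodes stayed inside its interval under each alternative run in C2 (257 to 319 CPM), C3 (308 to 360) and C4 (34.8 to 43.3). With at least 200 UMIs, 250 genes were past 2-fold higher and 147 lower in C1 over C2, from 525 and 339; fewer genes were then tested. Within cluster 4 the Il1a ratio of C1 over C2 was 0.935 and within cluster 14 it was 1.00, against 3.41 over the class, and within cluster 14 the Il1rn ratio was 1.57, against 0.250. Subtracting free RNA at the share given by salivary gland genes (2.03% of T-like UMIs in C1, 5.76% in C2) left Il18r1 inside its interval; C3 and C4 had too few salivary UMIs in free RNA. Clusters 0 and 8, clusters 4 and 14, clusters 21 and 27, the regulatory barcodes outside cluster 6 and the shared barcode sequences were added after seeing the data. The causes were not tested beyond what a setting itself changes. No paired analysis was possible because no library is tied to a group and no test was made. Counting error leaves Il1rl1, and any class under 50 barcodes, with wide intervals.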
